A study of Ogataea parapolymorpha with 16 samples.

Results

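The NADH-oxidizing module of respiratory complex I was followed at the transcript level through its 3 core subunit genes, NUBM (HPODL_04625), NUHM (HPODL_01287) and NUAM (HPODL_03689), chosen by locus tag from 5408 genes in the deposited tables of the yeast *Ogataea parapolymorpha*. CBS11895 is the wild-type strain, and IMD010 is a congenic mutant that carries a single-nucleotide frameshift in NUBM, made with CRISPR/Cas9. Both strains were grown aerobically on glucose in bioreactors in 4 ways: batch cultures with excess glucose (specific growth rate 0.37 per h), glucose-limited chemostats at 0.1 and 0.025 per h, and late-stage glucose-limited retentostats (approximately 0.001 per h), in which biomass is retained while fresh medium is fed. With 2 independent cultures of each strain and condition there were 16 samples in 8 groups. All IMD010 cultures descend from 1 mutant clone, so that strain and clone cannot be told apart. The retentostats were started from chemostats at 0.025 per h. Whether the chemostat samples at 0.025 per h came from those same runs is not given in the sources used here. The groups were compared as independent.

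Complex I passes electrons from matrix NADH to ubiquinone and couples this to proton translocation across the inner mitochondrial membrane. Its peripheral arm consists of the NADH-oxidizing module at the tip and the ubiquinone-reducing module next to the membrane. Nubm binds NADH and the flavin FMN, which takes up the electrons, and holds an iron-sulfur cluster. Nuhm is its partner and carries a further iron-sulfur cluster, and Nuam carries the clusters that lead from this pair towards the ubiquinone module. Many yeasts, including this one, also have alternative NADH dehydrogenases, single polypeptides that oxidize NADH without moving protons.

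The 3 genes lie on different chromosomes of the RefSeq annotation of strain DL-1, the assembly to which the authors aligned their reads. NUBM is on chromosome II from 171646 to 173112 (1467 bp), NUHM on chromosome VI from 332806 to 333402 (597 bp) and NUAM on chromosome IV from 1156156 to 1158363 (2208 bp). These are coding lengths, without untranslated regions, and correspond to 488, 198 and 735 residues. Each gene has 0 overlapping genes in the annotation. The closest neighbour lies 146 bp from NUBM, 91 bp from NUHM and 53 bp from NUAM. The labels name a library kit that does not mark strand, the study's methods describe strand-specific libraries, and the strand setting of the counting is not given in the sources used here.

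All values derive from the authors' FPKM (fragments per kilobase per 1000000 reads), which step in whole reads, so that the depth could be recovered. The libraries held 16522183 to 20898682 reads on genes, and the members were covered by 2188 to 28305 reads in a library. Here the deposited FPKM were divided by TMM (trimmed mean of M values) factors of 0.837 to 1.17. The divisor used for a gene in the deposited FPKM was not its annotated length, so FPKM is compared only within a gene. Levels of different genes are compared as reads per kilobase of coding length per 1000000 reads.

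Some libraries stand apart. The 2 IMD010 chemostat cultures at 0.1 per h differed from each other by a median of 0.67 log2 units over 5233 tested genes, against 0.07 to 0.15 in the other 7 groups. The 2 CBS11895 batch libraries lay low for short genes: over the 767 tested genes under 600 bp, the median deviation from the gene's mean was -1.34 and -0.995 log2 units, against -0.42 to 0.54 in the other 14 libraries. For the 1848 genes over 1500 bp it was 0.46 and 0.41 in these 2 libraries, against -0.19 to 0.22 elsewhere. NUHM falls in the short class, NUAM in the long class and NUBM between them. The part of this length dependence in the batch results was not tested. Batch differences of the members and of the gene lists are also given with the length trend removed, and the ratios and the likeness of patterns are not.

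A frameshift leaves the gene and its promoter in place, so the NUBM level is no check of the strain labels. NUBM reads were present in every IMD010 library, with 4889 to 13955 reads. The 8 CBS11895 libraries held 4990 to 11078 NUBM reads. The disrupted gene was thus transcribed under all 4 conditions. In these bulk cultures, fewer cells with a transcript and less transcript per cell cannot be told apart.

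Per coding length, NUHM was the most abundant of the 3 transcripts, with a mean of 536 reads per kilobase per 1000000 reads over the 16 samples, followed by NUAM with 435 and NUBM with 279. These means exceed those of 92.7%, 91.6% and 87.9% of 5231 protein-coding genes tested. The order was not constant. In the batch cultures NUAM reached 315 ± 41.6 (SD, n = 2) reads per kilobase per 1000000 reads in IMD010 and NUHM 275 ± 57.4 (SD, n = 2), and in the retentostats of IMD010 NUAM had 583 ± 14.8 (SD, n = 2) against 424 ± 26.1 (SD, n = 2) for NUHM. NUBM, by contrast, was below NUHM in each of the 16 libraries.

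NUBM, the gene of the NADH- and FMN-binding subunit, had its highest level in the chemostats at 0.1 per h in both strains. In CBS11895 its TMM-normalised FPKM was 1963 and 2132 in batch, 3039 and 2949 at 0.1 per h, 1743 and 1873 at 0.025 per h, and 2405 and 2235 in the retentostats. In IMD010 it was 1449 and 1939.8 in batch, 4017 and 4001 at 0.1 per h, 2619 and 2448 at 0.025 per h, and 2982 and 2867 in the retentostats. The mutant cultures therefore lay above both wild-type cultures under the 3 glucose-limited conditions and below both in batch, where on deposited FPKM without further factors the strains overlapped.

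Ordered by group mean, NUBM in IMD010 at 0.1 per h stood clear of all other groups at 4009 ± 10.9 (SD, n = 2). CBS11895 at 0.1 per h (2994 ± 63.6) and the IMD010 retentostats (2925 ± 81.0) overlapped. IMD010 at 0.025 per h (2534 ± 121), the CBS11895 retentostats (2320.2 ± 120.4), CBS11895 batch (2047 ± 119) and CBS11895 at 0.025 per h (1808 ± 91.6) followed without overlap between neighbours. IMD010 batch (1695 ± 347) came last and overlapped with CBS11895 at 0.025 per h. The 2 IMD010 chemostat cultures that differed widely over all genes were 0.01 log2 units apart for NUBM, a gap that 99.5% of the tested genes reached or exceeded. The 2 IMD010 batch cultures were 0.42 log2 units apart, and only 2.1% of the genes differed as much there.

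NUHM, the gene of the partner subunit, was high in the chemostats and low in batch. In CBS11895 its TMM-normalised FPKM was 145 and 219.7 in batch, 439.6 and 409 at 0.1 per h, 350.3 and 488 at 0.025 per h, and 307 and 309.6 in the retentostats. In IMD010 it was 146 and 197 in batch, 480.2 and 461 at 0.1 per h, 428 and 437 at 0.025 per h, and 253 and 276 in the retentostats. The 4 chemostat groups spanned 350.3 to 488 without a gap between the strains, the retentostats lay between 253 and 309.6, and the batch cultures reached at most 219.7.

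Ordered by group mean, IMD010 at 0.1 per h (471 ± 13.7, SD, n = 2) lay above IMD010 at 0.025 per h (433 ± 6.01) without overlap. The latter overlapped with CBS11895 at 0.1 per h (424 ± 21.8), and CBS11895 at 0.025 per h (419 ± 97.6) spanned all of these. The 2 batch groups also overlapped. The CBS11895 retentostats (308 ± 2.16, SD, n = 2) lay above the IMD010 retentostats (264 ± 16.3) without overlap. NUHM differed between the CBS11895 batch cultures by 0.60 log2 units and between the IMD010 batch cultures by 0.43, gaps that only 4.4% and 2.0% of the tested genes reached. For NUHM in batch the spread between cultures is thus larger than for most genes.

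NUAM, the gene of the largest subunit of the module, had its lowest group mean in batch in both strains. Single cultures outside batch ranged from 1869 to 3225 in TMM-normalised FPKM. In CBS11895 its TMM-normalised FPKM was 1143 and 1506 in batch, 2692 and 2865 at 0.1 per h, 2224 and 2353 at 0.025 per h, and 2658 and 2444 in the retentostats. In IMD010 it was 1555 and 1875 in batch, 1869 and 3218 at 0.1 per h, 2549 and 2526 at 0.025 per h, and 3225 and 3111 in the retentostats. The pair of IMD010 cultures at 0.1 per h was split for this gene: 1 culture matched the IMD010 batch level and the other the retentostat level.

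The highest NUAM group was the IMD010 retentostats (3168 ± 80.3, SD, n = 2), above CBS11895 at 0.1 per h (2778 ± 123). The CBS11895 retentostats (2551 ± 151), IMD010 at 0.1 per h (2544 ± 954) and IMD010 at 0.025 per h (2537 ± 16.2) could not be ordered beyond their spread. CBS11895 at 0.025 per h (2289 ± 91.4), IMD010 batch (1715 ± 226) and CBS11895 batch (1325 ± 257) followed. The wide IMD010 group at 0.1 per h overlapped with every group except CBS11895 batch.

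**Figure D1:**
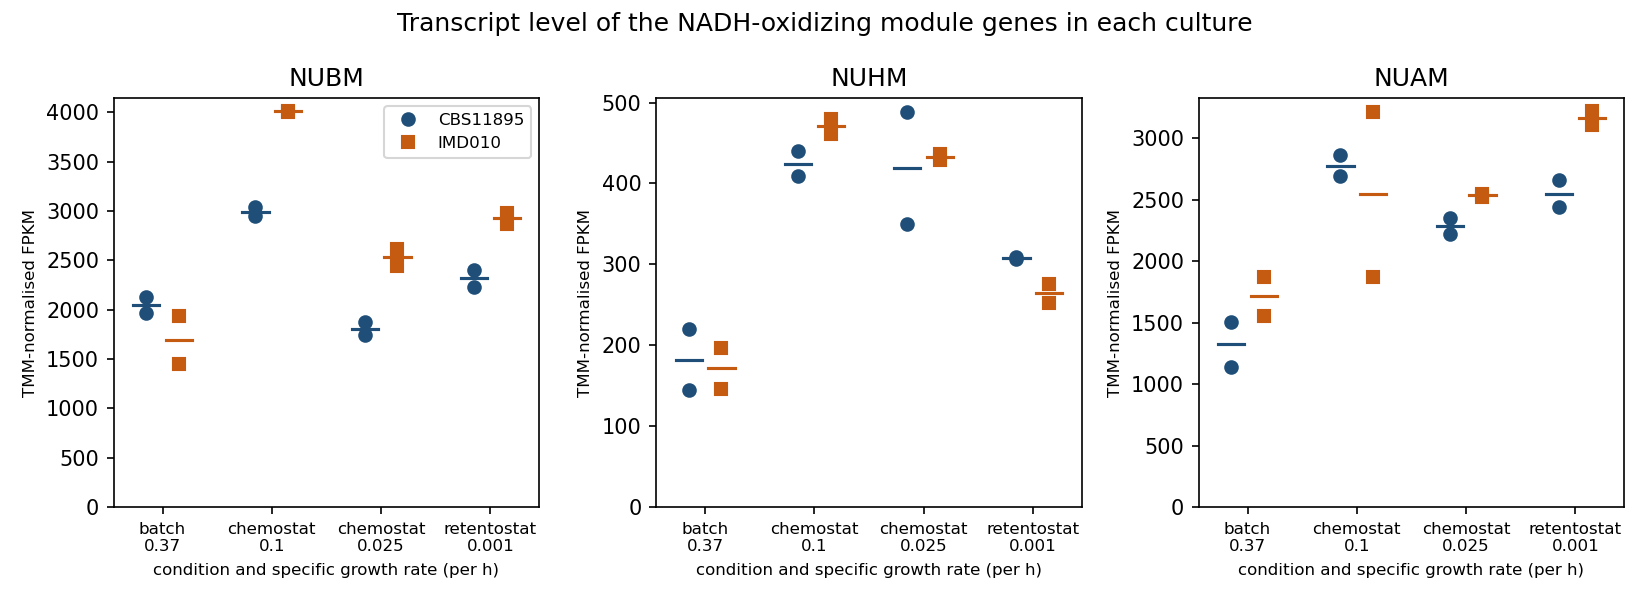
TMM-normalised FPKM (vertical axis, from 0) of NUBM, NUHM and NUAM in each of the 16 cultures, by condition and specific growth rate (per h); points are cultures and short lines group means. NUBM in IMD010 lies above CBS11895 under the 3 glucose-limited conditions, and the NUAM points of IMD010 at 0.1 per h are split between 1869 and 3218.

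The first comparison asks whether a nonfunctional Nubm goes with altered transcript levels of the module's own genes. Over the 4 conditions NUBM was higher in IMD010 by 0.24 log2 units (SE 0.07), or 1.18-fold, and it was the only member whose mean strain difference passed the test (limma, FDR = 0.0245). In that comparison 13.2% of the 5233 tested genes were called higher and 14.9% lower at a false-discovery rate (FDR, Benjamini-Hochberg over all tested genes) below 0.05. The mean NUAM difference was 0.17 (95% interval -0.08 to 0.41, FDR = 0.279) and that of NUHM -0.02 (95% interval -0.25 to 0.21, FDR = 0.911). The median over all tested genes was -0.02.

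In an exact two-sided permutation test, in which strain labels were exchanged within each condition (1296 assignments), the NUBM difference had p = 0.054. NUAM had p = 0.207 and NUHM p = 0.846 in the same exact permutation test. The smallest p this design allows is 0.00154. The NUBM call was lost when any 1 of 8 cultures was left out: CBS11895 replicate 1 at 0.025 per h, replicate 2 in the retentostat, replicate 1 in batch and both at 0.1 per h, and IMD010 replicate 1 at 0.025 per h, replicate 1 in the retentostat and replicate 2 in batch (log2 differences of 0.19 to 0.24, limma FDR of 0.0532 to 0.0672). Without all 4 batch cultures the difference was 0.41 (limma, FDR = 0.00738), and without both IMD010 cultures at 0.1 per h it was 0.18 (limma, FDR = 0.0342). In those fits 8.6% and 73.4% of all tested genes were called, against 28.1% in the main fit. The NUAM mean was 0.26 without IMD010 replicate 1 at 0.1 per h.

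Under single conditions the NUBM difference was 0.42 (SE 0.14) at 0.1 per h, 0.49 (SE 0.14) at 0.025 per h and 0.33 (SE 0.14) in the retentostats, equal to 1.34-, 1.40- and 1.26-fold. In batch it was -0.29 (SE 0.14). None of the 4 passed after adjustment over all genes (limma, FDR = 0.0866, 0.121, 0.267 and 0.0795), although the unadjusted p was below 0.05 under each glucose-limited condition. The 2 IMD010 and 2 CBS11895 cultures did not overlap for NUBM in any of the 4 conditions. Lack of overlap was common among the tested genes, at 90.9% in batch, 55% at 0.1 per h, 62.9% at 0.025 per h and 69% in the retentostats.

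NUHM and NUAM were not called under any single condition either. NUHM differences were -0.07 (95% interval -0.54 to 0.40) in batch, 0.15 (-0.32 to 0.62) at 0.1 per h, 0.06 (-0.40 to 0.53) at 0.025 per h and -0.22 (-0.69 to 0.24) in the retentostats. NUAM differences were 0.38 (95% interval -0.10 to 0.86), -0.18 (-0.66 to 0.30), 0.15 (-0.33 to 0.63) and 0.31 (-0.17 to 0.80) in the same order. With these intervals, differences of up to 0.86 log2 units for NUAM in batch could go uncalled.

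The calls among all tested genes in these strain comparisons were 30.6% higher and 42.9% lower in batch, 2.5% and 0.879% at 0.1 per h, 0.955% and 0.535% at 0.025 per h, and 1.82% and 1.78% in the retentostats. In batch the median gene was itself -0.21 log2 units lower in IMD010, so that NUBM, at -0.29, lay close to it and NUAM, at 0.38, lay above it. Without TMM factors the median was 0.13 and the differences were 0.06 for NUBM, 0.28 for NUHM and 0.73 for NUAM, the last called (limma, FDR = 0.0326), so that the signs of NUBM and NUHM in batch flip with the scaling. With the length trend removed from each library, the batch differences became -0.03 for NUBM, -0.84 for NUHM (limma, FDR = 0.00273) and 0.75 for NUAM (limma, FDR = 0.0151). Without both of the IMD010 cultures at 0.1 per h, which enter the shared estimate of the spread, NUBM in batch (-0.29, limma FDR = 0.0406), NUAM in batch (0.38, FDR = 0.0145) and NUBM at 0.025 per h (0.49, FDR = 0.0144) passed the threshold. In that fit 84.1% of all tested genes were called in batch and 25.4% at 0.025 per h. The main fit called 73.5% and 1.49%, so a call in batch was common in either fit. Over the fits without 1 culture NUBM in batch ranged from -0.50 to -0.08, and it was called without IMD010 batch replicate 2 (-0.50, limma FDR = 0.0133). For NUAM at 0.1 per h the sign was set by 1 culture: the difference was 0.21 without IMD010 replicate 1 and -0.57 without replicate 2 (limma, FDR = 0.499 and 0.00519). NUBM at 0.1 per h was called without that replicate 2 (0.42, FDR = 0.0188).

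The second comparison asks how the module's transcripts respond to the growth regime. Between glucose-limited growth at 0.1 per h and batch growth, all 3 members were lower in CBS11895 batch cultures: NUHM by -1.24 log2 units (SE 0.21, limma FDR = 0.000311), NUAM by -1.08 (SE 0.22, FDR = 0.00103) and NUBM by -0.55 (SE 0.14, FDR = 0.00379). These are levels 2.37-, 2.12- and 1.46-fold below those at 0.1 per h. In IMD010 batch cultures NUHM fell by 1.46 (SE 0.21, limma FDR = 0.000213) and NUBM by 1.26 (SE 0.14, FDR = 2.88e-05). These correspond to 2.76- and 2.39-fold. NUAM differed by -0.52 (SE 0.22) in IMD010 and missed the threshold (limma, FDR = 0.0661).

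Among all tested genes 36.1% were called lower and 37.9% higher in batch in CBS11895, and 27.7% and 24% in IMD010. A drop in batch was therefore not rare, and NUHM in IMD010 ranked lower than all but 7.5% of the genes. Leaving out IMD010 replicate 1 at 0.1 per h turned the NUAM difference in IMD010 to -0.91 (limma, FDR = 0.000407), and leaving out replicate 2 turned it to -0.13 (FDR = 0.442). Removal of the length trend changed the CBS11895 values to -0.52 for NUHM (limma, FDR = 0.0276), -1.40 for NUAM (FDR = 0.000325) and -0.80 for NUBM (FDR = 0.000401), so that the order of the 3 genes changed while every call held.

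The chemostats at 0.025 per h gave a second reference for batch growth, free of the IMD010 pair that stands apart. Against them, NUHM was lower in batch by -1.21 in CBS11895 (limma, FDR = 0.000134) and -1.34 in IMD010 (FDR = 8.75e-05), and NUAM by -0.80 (FDR = 7.83e-05) and -0.57 (FDR = 0.00142). NUBM was lower in IMD010 by -0.59 (limma, FDR = 0.000728), whereas in CBS11895 the difference was 0.18 (FDR = 0.170). In the wild type, then, NUBM in batch was called lower against 0.1 per h but not against 0.025 per h, while NUHM and NUAM were called against both. In the fit against 0.025 per h, 89.4% of all tested genes were called in CBS11895 and 77.2% in IMD010. A call there was thus common and says little about the members in particular. With the length trend removed, the CBS11895 differences against 0.025 per h were -0.24 for NUHM (limma, FDR = 0.178), -1.36 for NUAM (FDR = 1.42e-06) and -0.16 for NUBM (FDR = 0.216), so that the NUHM call was lost and the NUBM estimate changed sign. In IMD010 all 3 calls held, at -1.19 for NUHM, -0.71 for NUAM and -0.66 for NUBM.

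The batch response of NUBM differed between the strains. The batch minus 0.1 per h difference of IMD010 exceeded that of CBS11895 by -0.71 log2 units, a larger fall (SE 0.19, limma interaction FDR = 0.00677). Many genes shared such a difference, with 44% of the tested genes called lower in this contrast, 32.5% called higher and a median of -0.27. This interaction against 0.1 per h was not called with the length trend removed (-0.36, limma FDR = 0.119) or on deposited FPKM without further factors (-0.25, FDR = 0.286). Against 0.025 per h the difference between strains was -0.77 for NUBM (limma, FDR = 0.0013), and -0.50 with the length trend removed (FDR = 0.0175). Without that removal 78.5% of all tested genes were called in the contrast against 0.025 per h. Against 0.1 per h the interaction was 0.56 (SE 0.31, FDR = 0.121) for NUAM, which became 0.95 without IMD010 replicate 2 at 0.1 per h (FDR = 0.000796), and -0.22 (SE 0.30, FDR = 0.511) for NUHM.

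**Figure D2:**
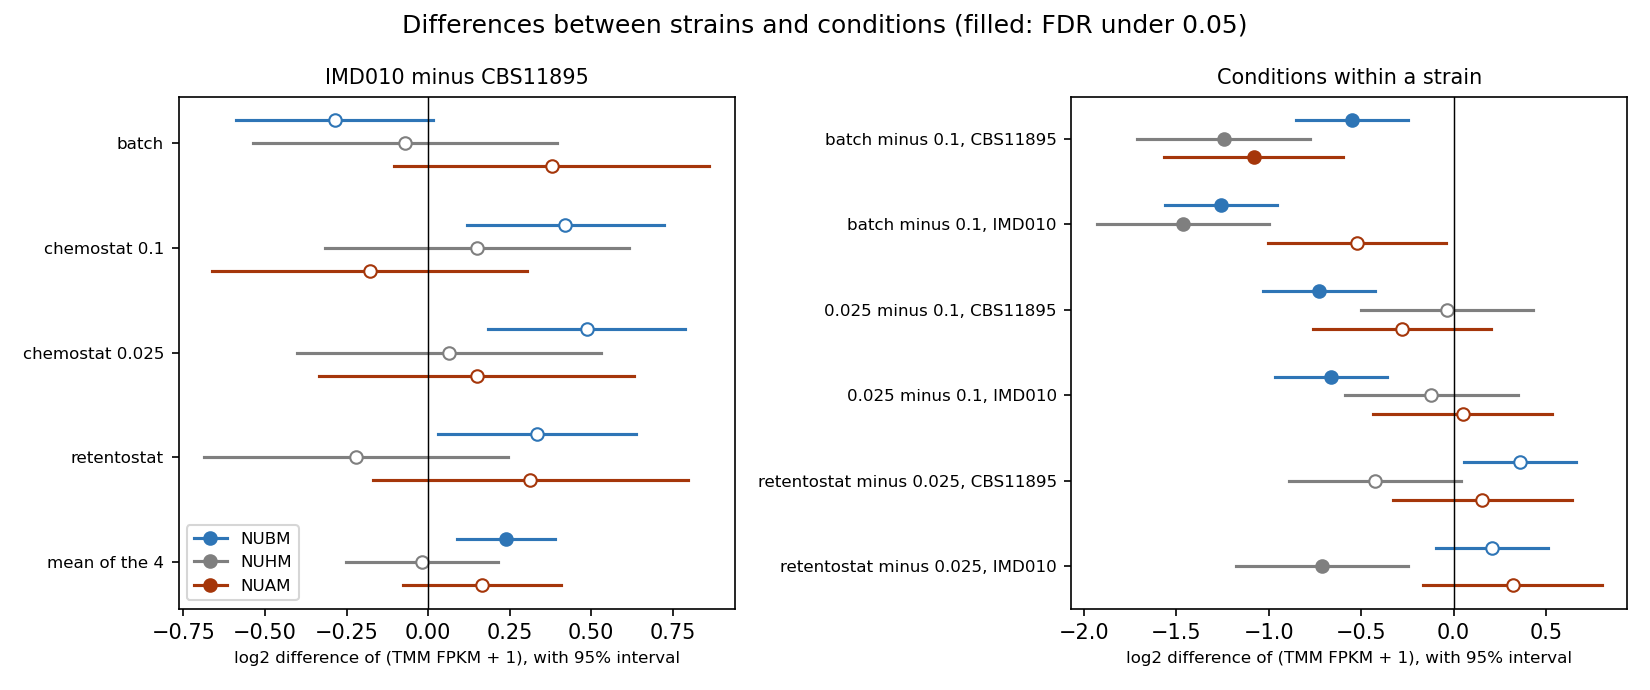
Log2 differences of (TMM FPKM + 1) for NUBM, NUHM and NUAM with 95% intervals from the fit over 16 samples, on the left IMD010 minus CBS11895 under each condition and as their mean; right, differences between conditions within each strain; filled points have an FDR below 0.05. On the left only the NUBM mean of 0.24 is filled, and on the right the batch differences reach -1.46 for NUHM in IMD010.

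Between the 2 dilution rates, NUBM was the only member called. From 0.1 to 0.025 per h it fell by 0.73 (SE 0.14, limma FDR = 0.00277) in CBS11895 and by 0.66 (SE 0.14, FDR = 0.0037) in IMD010, equal to 1.66- and 1.58-fold. NUHM differed by -0.04 (95% interval -0.50 to 0.43) and -0.12 (-0.59 to 0.35), and NUAM by -0.28 (-0.76 to 0.20) and 0.05 (-0.43 to 0.53). Without IMD010 replicate 2 at 0.1 per h the NUAM difference in IMD010 was 0.44 and called (limma, FDR = 0.0194). Of all tested genes 13.5% were called higher and 16.3% lower in CBS11895, and 23.9% and 26.5% in IMD010. In a fit of only the 4 IMD010 samples, where the split pair sets the spread, the NUBM difference kept its size but was not called (limma, FDR = 0.260).

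From 0.025 per h to the retentostats NUHM fell by 0.71 (SE 0.21, limma FDR = 0.0279) in IMD010, which is 1.64-fold. In CBS11895 the difference was -0.42 (SE 0.21, FDR = 0.195). Genes under 600 bp, to which NUHM belongs, also lay lower in the retentostats. Their median deviations in IMD010 were 0.152 and 0.246 there, against 0.41 and 0.357 at 0.025 per h. In CBS11895 they were 0.202 and 0.206, against 0.388 and 0.535. The part of gene length in the NUHM differences was not tested. NUBM differed by 0.36 (SE 0.14, FDR = 0.0963) and 0.21 (SE 0.14, FDR = 0.303) in CBS11895 and IMD010, and NUAM by 0.16 (SE 0.22) and 0.32 (SE 0.22), none of which was called. Without both of the IMD010 cultures at 0.1 per h, NUBM in CBS11895 (0.36, limma FDR = 0.0246) and NUAM in IMD010 (0.32, FDR = 0.0451) passed the threshold. In that fit 53.4% of all tested genes were called in CBS11895 and 59.8% in IMD010, against 17.9% and 28% in the main fit. Thus 1 member of the module, NUHM, lay lower in retentostats while the estimates for its partner NUBM were positive in both strains. The background was 9.98% higher and 7.97% lower in CBS11895 and 13.6% and 14.4% in IMD010. The NUHM call in IMD010 was lost without any 1 of its 4 cultures (limma, FDR = 0.0826 to 0.150, differences of -0.77 to -0.65).

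The strains did not differ detectably in these 2 steps. The NUBM interaction was 0.07 (95% interval -0.36 to 0.49) between the dilution rates and -0.15 (-0.58 to 0.28) between chemostat and retentostat. For NUHM it was -0.09 (-0.74 to 0.57) and -0.29 (-0.95 to 0.37), and for NUAM 0.33 (-0.36 to 1.01) and 0.16 (-0.52 to 0.85). In the first step 0% of all tested genes were called in either direction by limma, with 299 genes at an unadjusted p below 0.05 and 0 called by limma with voom weights. In the second 0.172% were called higher and 0.153% lower. Without IMD010 replicate 2 at 0.1 per h the NUAM interaction between the dilution rates was 0.72 (limma, FDR = 0.00766), and without replicate 1 it was -0.06.

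Regression on the specific growth rate over the 6 glucose-limited cultures of each strain gave no call for any member (FDR below 0.1 and R2 above 0.8). Slopes are in units of the gene's mean level per 1 per h. NUBM had 3.77 ± 1.39 (SE) in CBS11895, with R2 = 0.594 and FDR = 0.0793 in limma, and 4.13 ± 1.64 in IMD010, with R2 = 0.769 and FDR = 0.108. NUHM had 2.36 ± 1.50 and 4.38 ± 1.86, and NUAM 1.30 ± 0.88 and -1.74 ± 2.00. The low R2 of NUBM in CBS11895 goes with a level that was lower at 0.025 per h than both above and below that rate. Of all tested genes 16.6% were called with positive and 11.9% with negative slopes in CBS11895, and 6.34% and 6.67% in IMD010. The NUAM slope in IMD010 was 0.532 without replicate 1 at 0.1 per h and -4.74 without replicate 2, the latter called (limma, FDR = 0.0291). The NUHM slope in CBS11895 was 3.15 and called (limma, FDR = 0.0222) without CBS11895 replicate 2 at 0.025 per h, and the NUBM slope in IMD010 was 5.49 and called (FDR = 0.0474) on deposited FPKM without further factors.

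Ratios within a library do not depend on the scaling factors between libraries. Per coding length, the NUBM to NUHM ratio in CBS11895 was 0.928 and 0.664 in batch, 0.473 and 0.494 at 0.1 per h, 0.341 and 0.263 at 0.025 per h and 0.537 and 0.494 in the retentostats. In IMD010 it was 0.678 and 0.674 in batch, 0.573 and 0.594 at 0.1 per h, 0.419 and 0.384 at 0.025 per h and 0.807 and 0.712 in the retentostats. Under all 3 glucose-limited conditions the mutant libraries thus held more NUBM for each NUHM transcript than the wild-type libraries, by 1.21-, 1.34- and 1.47-fold of the geometric means, and in batch the strains overlapped.

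The NUBM to NUAM ratio spanned 0.845 to 1.02 in CBS11895 batch cultures and 0.556 to 0.618 in IMD010 batch cultures. At 0.1 per h it was 0.614 to 0.674 in CBS11895 and 0.742 to 1.28 in IMD010, and at 0.025 per h 0.468 to 0.475 and 0.578 to 0.613. In the retentostats the strains differed little, at 0.540 to 0.546 and 0.550 to 0.552. The mutant ratio was therefore lower than the wild-type ratio in batch and higher in the chemostats. The NUAM to NUHM ratio was higher in IMD010 in batch (1.09 to 1.22, against 0.786 to 0.906) and in the retentostats (1.29 to 1.46, against 0.906 to 0.995), and overlapped between the strains in the chemostats. These ratios pair genes of different length, so the low level of short genes in the CBS11895 batch libraries moves with them.

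**Figure D3:**
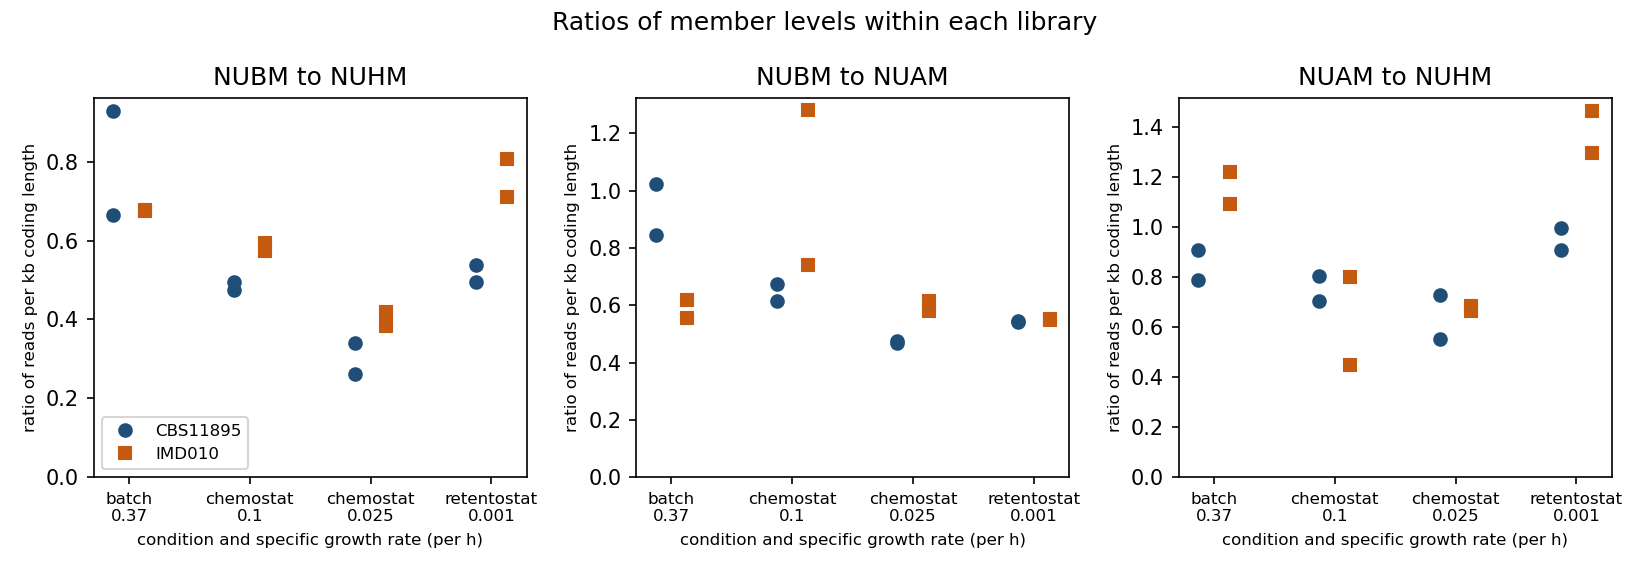
Ratios of reads per kilobase of coding length between members within each of the 16 libraries (vertical axis, from 0), by condition and specific growth rate (per h); points are cultures. The NUBM to NUHM ratio of IMD010 lies above that of CBS11895 under the 3 glucose-limited conditions, and the IMD010 value of NUBM to NUAM at 0.1 per h reaches 1.28.

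The other nuclear complex I genes give the setting for these changes. The ubiquinone module, which passes electrons on to ubiquinone, comprises NUCM, NUGM, NUIM and NUKM. From 0.1 per h to batch, 2 of its 4 genes fell in CBS11895 (NUIM by 1.04, SE 0.16, and NUCM by 0.93, SE 0.19), while NUGM and NUKM differed by 0.11 and -0.11. In IMD010 all 4 fell: NUGM by 1.98, NUIM by 1.65, NUKM by 1.53 and NUCM by 0.63 log2 units (limma, FDR = 0.000336, 1.45e-05, 0.00182 and 0.0177). The median was -0.52 in CBS11895 and -1.59 in IMD010 for this module, against -1.08 and -1.26 for the 3 members and 0.04 and 0.00 for all tested genes.

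Accessory subunits are not needed for the electron path itself but for assembly and stability. NUYM, NUMM, N7BM and NI8M are 4 of them whose mammalian counterparts sit in or next to the NADH-oxidizing module. All 4 fell in batch in both strains, with differences of -3.89 (NUYM), -2.92 (N7BM), -2.32 (NUMM) and -1.61 (NI8M) log2 units in CBS11895, and of -1.41, -1.15, -1.32 and -1.05 in IMD010. NUYM, N7BM and NUMM are 462, 423 and 414 bp long and so belong to the short genes, which lay low in the CBS11895 batch libraries. NI8M is annotated at 1778 bp, which is not a whole number of codons (591.67 residues) and so may not be its coding length. Of the other 18 accessory genes 13 fell in CBS11895 (from -2.53 for NESM to 0.11 for ACPM1, median -1.21) and 15 in IMD010 (from -2.21 for NIAM to -0.34 for ACPM1, median -1.16). None of the 29 complex I genes rose in either strain. The 3 alternative NADH dehydrogenase genes all rose in batch, by 1.86 to 3.70 in CBS11895 and 0.82 to 1.46 in IMD010.

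With the length trend removed, all 4 module accessory genes still fell in CBS11895 batch cultures, by -2.82 (NUYM), -1.72 (N7BM), -1.09 (NUMM) and -1.94 (NI8M), and so did NUCM and NUIM. The NI8M values in this setting rest on its annotated length and are therefore uncertain. Of the other 18 accessory genes 8 then fell and 3 rose in CBS11895, with a median of -0.21, so that the absence of rising complex I genes in CBS11895 did not hold in that setting. In IMD010 all 4 ubiquinone-module genes, all 4 module accessory genes and all 18 others fell, and the 3 alternative dehydrogenase genes rose in both strains.

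**Figure D4:**
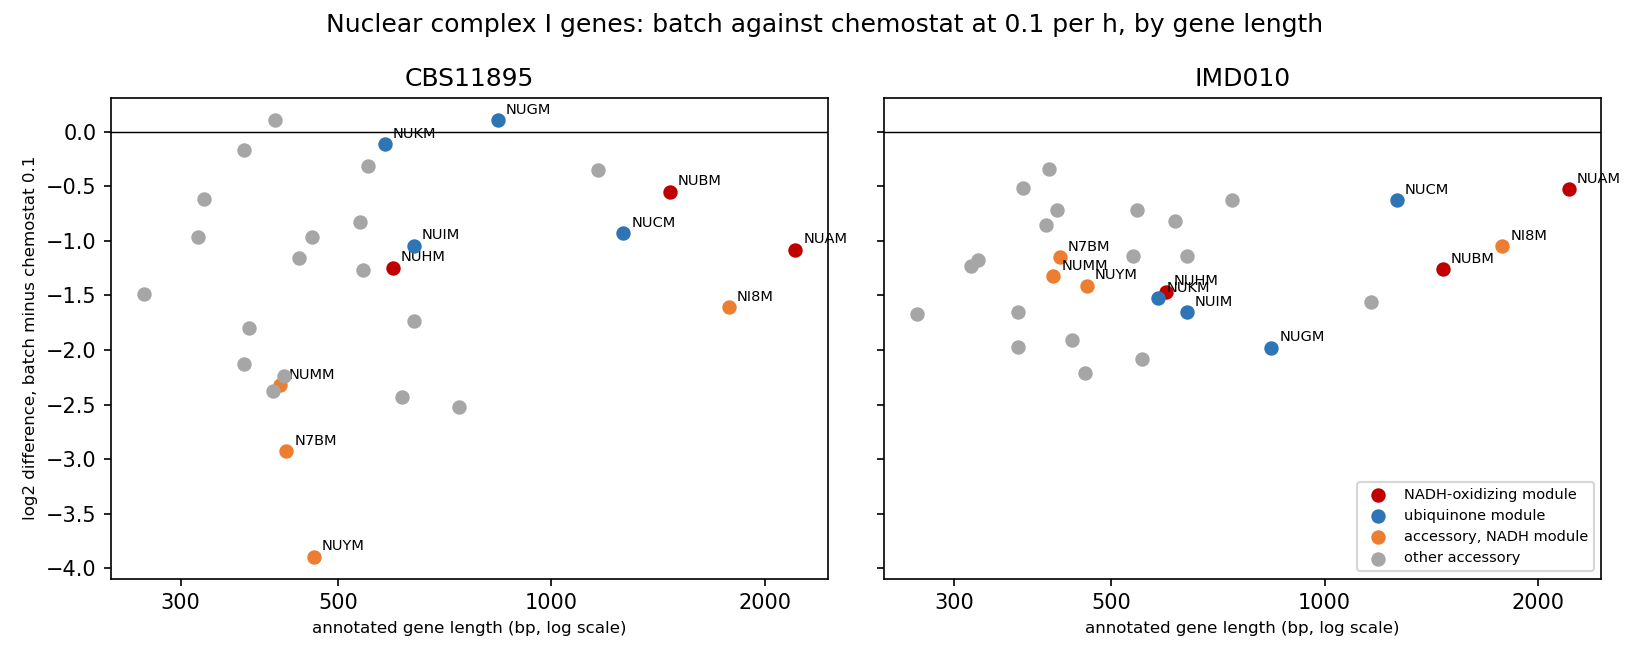
Log2 difference between batch and chemostat growth at 0.1 per h (vertical axis) of 29 nuclear complex I genes against annotated gene length in bp (horizontal log axis), in CBS11895 (left) and IMD010 (right); colours mark the gene lists. In CBS11895 NUYM lies lowest, at -3.89, whereas in IMD010 NUYM is at -1.41 and the 29 genes lie between -0.34 and -2.21. NI8M is placed at its annotated 1778 bp, which may not be its coding length.

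In the strain comparison few genes of the other lists were called outside batch. Calls were rare there among all tested genes too, at 3.38% at 0.1 per h, 1.49% at 0.025 per h and 3.59% in the retentostats. The counts that follow therefore do not show that these lists were unchanged. At 0.1 and 0.025 per h and in the retentostats 0 of 4 ubiquinone-module genes, 0 of 4 module accessory genes and 0 of the other 18 accessory genes were called by limma, and at an unadjusted p below 0.05 there were 2, 0 and 2 at 0.1 per h, 0, 0 and 0 at 0.025 per h and 0, 0 and 1 in the retentostats. In batch the 4 module accessory genes were higher in IMD010 by 2.02 (NUYM), 1.45 (N7BM), 0.85 (NUMM) and 0.48 (NI8M) log2 units, and NUGM and NUKM were lower by -1.29 and -0.86. Of the other 18 accessory genes 8 were higher and 4 lower, from -1.35 (NB4M) to 1.63 (NESM). Of all tested genes 30.6% were called higher and 42.9% lower in batch, and 71.7% were called with the length trend removed. A call in batch was thus common in either setting. With the length trend removed, NUYM (0.86) and NI8M (0.85) were higher in IMD010 batch cultures, N7BM (0.16, limma FDR = 0.451) was not called and NUMM was lower (-0.47, FDR = 0.0181). The NI8M value again rests on its annotated length and is uncertain. In that setting NUGM, NUKM and NUIM were lower, and of the other 18 accessory genes 1 was higher and 11 were lower. Over the mean of the 4 conditions, NUBM was the only one of the 7 core genes called. In that comparison 28.1% of all tested genes were called, so 1 call among 7 genes does not exceed the share over all genes. Of the alternative dehydrogenase genes NDH2-1 was higher in IMD010 by 2.11 at 0.1 per h and 1.74 at 0.025 per h, and was not called in the retentostats (0.66). In batch all 3 of these genes were lower in IMD010, from -1.15 (NDH2-3) to -0.63 (NDH2-1). With the length trend removed NDH2-1 was not called in batch (-0.31, limma FDR = 0.109).

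From 0.1 to 0.025 per h 3 of the 4 module accessory genes rose in each strain (median 0.91 in CBS11895 and 0.92 in IMD010), and of the other 18 accessory genes 5 rose in CBS11895, and 1 rose and 1 fell in IMD010. The highest of the 4 was NI8M, annotated at 1778 bp (1.75 and 1.43). Genes under 600 bp as a class also lay higher at 0.025 per h. Their median deviations in CBS11895 were 0.388 and 0.535 there, against 0.046 and 0.003 at 0.1 per h. In IMD010 they were 0.41 and 0.357, against -0.423 and 0.047. The part of gene length in this step was not tested. In the ubiquinone module 1 of 4 genes, NUCM, was called in CBS11895 and fell by 0.57, and 0 of 4 were called in IMD010. From 0.025 per h to the retentostats 1 module accessory gene and 1 other accessory gene fell in CBS11895, and 0 and 1 in IMD010. In that step 0 of 4 ubiquinone-module genes were called. Of all tested genes 9.98% were called higher and 7.97% lower in CBS11895 in the retentostat step, and 13.6% and 14.4% in IMD010. Between the dilution rates these shares were 13.5% and 16.3% in CBS11895, and 23.9% and 26.5% in IMD010. With lists this small, the retentostat counts do not show whether the lists changed.

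The likeness of expression patterns was measured as the root mean square difference between log2 levels centred on each gene's mean, over the 16 samples and all 5233 tested genes. Closest to NUBM were HPODL_04932 (0.15), HPODL_05035 (0.19) and HPODL_01502 (0.20), the last annotated as a cytoplasmic malate dehydrogenase. Closest to NUHM were HPODL_01370 (0.17), annotated as an NADPH-dependent xylose reductase, the complex I accessory gene NIDM (0.21) and HPODL_00166 (0.22). Closest to NUAM were HPODL_00745 (0.16), HPODL_01052 (0.18), annotated as the DNA-binding protein Reb1, and HPODL_02462 (0.18). The median difference to all other genes was 0.69 for NUBM, 0.79 for NUHM and 0.68 for NUAM.

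Of the 28 other complex I genes, 5 were within the closest 1% of genes to NUHM and 20 within the closest 10%. For NUBM these counts were 1 and 5, and for NUAM 0 and 5. The closest complex I gene to NUBM and to NUAM was NUCM, at ranks 19 and 77 of 5232. The length dependence described above was strongest in the 2 CBS11895 batch libraries. NUHM, like most accessory genes, is short while NUBM and NUAM are longer. The part of this dependence in the likeness of patterns was not tested.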

How the data were processed

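Poly(A) RNA of 16 cultures was sequenced. The labels name a kit that does not mark strand, whereas the study's methods describe strand-specific libraries, and how HTSeq treated strand is not given in the sources used here. Per the study's methods and the submitters' processing notes, the authors aligned reads with STAR (2.5.3a), removed ambiguously mapped reads, counted with HTSeq and normalised with edgeR. The deposited values are FPKM per gene. They are whole multiples of 1 read per gene and library (100% of values above 0, within 0.01 read, for 5400 of 5408 genes; 8 genes were at 0 in all samples). Sample scales equalled the read totals, so no TMM factor was contained. TMM factors (trims of 30% and 5%) were computed on the recovered reads, and log2(TMM FPKM + 1) was fitted in limma (3.58.1, R 4.3.3) over all 16 samples in 8 groups. Genes with a mean of at least 10 in at least 1 group were tested (5233, with all 3 members), with Benjamini-Hochberg adjustment and a threshold of 0.05. FPKM is not a count, and fold changes on this scale understate those of low genes.

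Groups were taken from the labels. The members and lists were chosen with earlier results of these data known. Named were the members, the 4 ubiquinone-module and 4 module accessory genes, the highest and lowest of other lists in a contrast, and the 3 genes most like each member. The script was tested on simulated data. Alternatives were other scalings, pseudocounts of 0.1 and 10, no filter, a replicate block, removal of a length trend (local regression, span 0.3), voom weights, fits of 4 samples, the study's threshold (absolute log2 fold change above 2, FDR below 0.001) and leaving out each culture. Fits without both IMD010 cultures at 0.1 per h or without batch cultures, and removal of the length trend for the lists and for batch against 0.025 per h, were added after seeing the data. Sequences are not reported here.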

Additional observations from a re-analysis of the deposited data

Results flagged for a closer look

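The batch response of NUBM differed between the strains in the main fit, in a test of the difference itself. The change from chemostat growth at 0.1 per h to batch was -0.55 log2 units in CBS11895 and -1.26 in IMD010. The interaction was -0.71 (SE 0.19, limma FDR = 0.00677). It was not called with the length trend removed (-0.36, limma FDR = 0.119) or on deposited FPKM without further factors. Over all tested genes the median of that interaction was -0.27, and 44% of genes were called lower and 32.5% higher. Groups of 2 cultures were too small for a check of single outlying samples.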

How the results depend on the processing

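Pseudocounts, the filter and median-of-ratios factors changed no member's call or direction. On deposited FPKM without further factors the directions of NUBM (0.06) and NUHM (0.28) in batch between strains, of the NUHM strain mean (0.03, also 0.03 in the permutation test), and of the NUHM interactions (0.24 for batch, 0.11 between dilution rates) and the NUAM interaction for the retentostat step (-0.04) reversed. In the same setting the batch interaction of NUBM was -0.25 (not called) and that of NUAM 1.02 (called), and NUAM in batch between strains was 0.73 (called). With the length trend removed the batch interactions were -0.36 for NUBM (not called), -1.09 for NUHM and 0.95 for NUAM (both called). In fits of only 4 samples NUBM and NUHM in IMD010 batch against 0.1 per h kept -1.26 and -1.46 and were not called. Without both IMD010 cultures at 0.1 per h the NUAM strain mean was 0.28 and called, and batch against 0.025 per h gave 0.18 for NUBM in CBS11895 (reversed) and -0.57 for NUAM in IMD010 (called). In these fits 73.4% of all tested genes were called for the strain mean and 77.2% for that IMD010 comparison. Under the study's threshold 0 of the members' 10 calls over 14 comparisons remained. Of 5233 tested genes that threshold left 730 in CBS11895 and 235 in IMD010 for batch against 0.1 per h. It left 374 between strains in batch, 587 for the batch interaction and at most 130 in any other comparison. Few genes passed it, so the count of 0 says little about the members in particular.

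Leaving out 1 culture moved the strain means over 0.19 to 0.29 for NUBM, -0.09 to 0.06 for NUHM and 0.07 to 0.26 for NUAM. A lone culture left in a group was assumed to vary like the other groups. The batch interactions ranged from -0.52 to 0.08 for NUHM and from 0.17 to 0.95 for NUAM, and NUAM in IMD010 batch against 0.1 per h from -0.91 to -0.13. NUBM in batch between strains ranged from -0.50 to -0.08 and the NUHM slope in CBS11895 from 1.70 to 3.16. Directions also reversed within these ranges: NUHM in batch (-0.37 to 0.23) and at 0.025 per h (-0.17 to 0.30) between strains, NUAM at 0.1 per h (-0.57 to 0.21), NUHM in CBS11895 (-0.27 to 0.20) and NUAM in IMD010 (-0.34 to 0.44) between dilution rates, their interactions (-0.32 to 0.15 and -0.06 to 0.72), and the NUAM slope in IMD010 (-4.74 to 0.532).

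Cultures with the same replicate number share only that number: deviations of same-numbered cultures correlated between -0.319 and 0.413 over 28 pairs of groups, above 0.1 in 6. With the replicate block no member's call changed, the NUBM strain mean stayed at 0.24 (FDR = 0.0312) and the count of genes called went from 1472 to 1464. With the block and the length trend removed together, the batch interactions were -0.36, -1.09 and 0.95 for NUBM, NUHM and NUAM, those of NUHM and NUAM called.

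Counts over all genes depended most on the IMD010 pair at 0.1 per h and on the samples fitted. The strain mean had 1472 calls (450 to 3839 over the alternatives), strain differences 3844 in batch (3154 to 4400), 177 at 0.1 per h (0 to 4127), 78 at 0.025 per h (20 to 1327) and 188 in retentostats (31 to 1405). In CBS11895 the batch, dilution-rate and retentostat steps had 3871 (3330 to 4678), 1559 (715 to 3363) and 939 (339 to 2796), and in IMD010 2710 (232 to 4216), 2638 (0 to 4309) and 1465 (792 to 3165). Interactions had 4003 (3574 to 4552), 0 (0 to 3492) and 17 (8 to 665). Without factors the share of calls that were higher went from 41.6% to 56.6% in batch, 64.1% to 89.6% at 0.025 per h and 50.5% to 23.1% in retentostats between strains, from 51.2% to 34.6% and 45.2% to 20.1% for the batch and dilution-rate steps in CBS11895, and from 47.4% to 35.8% and 48.6% to 27.7% for the dilution-rate and retentostat steps in IMD010. For the first and last interactions it went from 42.5% to 56.3% and from 52.9% to 9.2%. The cause of these changes was not tested.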
